A study of Mus musculus with 2 samples.

Results

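The nuclear-encoded subunits of the mitochondrial respiratory chain were followed in spatially resolved RNA of mouse liver. The members were all genes whose symbol starts with Ndufa, Ndufb, Ndufc, Ndufs, Ndufv, Uqcr, Cox4, Cox5, Cox6, Cox7 or Cox8, together with Sdha, Sdhb, Sdhc, Sdhd and Cycs, leaving out the Ndufaf assembly factors and Cox7a2l. They came to 61 of the 19465 genes in the tables, 34 of complex I (7 core and 27 supernumerary subunits), 4 of complex II, 7 of complex III, 15 of complex IV and cytochrome c. Complex IV includes Ndufa4l2, a paralog of the complex IV subunit Ndufa4. Other subunits, such as Cox4i1, Cox5a, Cox6b1, Ndufa4 and Uqcrq, were not analysed here, and neither were the subunits encoded in mitochondrial DNA.

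The samples were 1 liver section from an AEG-1-WT mouse and 1 from an AEG-1-C75S mouse. Both were naïve females of 8 weeks, littermates from a mating of heterozygotes, and the tissue was taken from the same lobe, fixed in formalin and embedded in paraffin. In AEG-1-C75S a CRISPR/Cas9 knock-in exchanges cysteine 75 of AEG-1 (gene Mtdh), the residue that carries a palmitoyl group, for serine. RNA was counted with the 10x Visium assay, in which pairs of probes ligated on an RNA are captured on barcoded spots and counted by unique molecular identifiers (UMIs). Each spot takes in several cells, and the probes do not read the edited codon. With 1 section per genotype no test between genotypes was possible. Every ratio between genotypes (AEG-1-C75S over AEG-1-WT) compares those libraries, not the conditions, and the intervals, 95% exact binomial unless stated otherwise, cover counting error only.

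The respiratory chain passes electrons from NADH (complex I) and succinate (complex II) through ubiquinone, complex III and cytochrome c to complex IV, which reduces oxygen. Complexes I, III and IV pump protons, and the ATP synthase uses the resulting gradient. In the liver lobule, oxygen-rich blood enters at the portal tract and leaves at the central vein, and periportal hepatocytes are known for oxidative metabolism.

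Genes of the respiratory chain share nuclear regulators such as NRF1, the ETS-family factor GABP, YY1 and the estrogen-related receptors. Promoters of some members are shown as examples, not as a sample of all members. RefSeq windows from 250 bases before to 50 after the gene start (GRCm38.p6, the assembly of mm10) were found for 48 of the 61 members. The NRF1 consensus was searched on either strand with any base allowed at an inner position. Its matches are the longest stretches in capitals in the Sdhd and Cox6a1 windows, which differ from each other only in that base. It was found in 11 of the 48 (22.9%), against 5.19% of 27025 genes with a window. CCGGAAG (ETS) was found in 10 (20.8% against 9.93%), AAGATGGC (YY1) in 5 (10.4% against 3.19%) and AAGGTCA (estrogen-related receptor) in 4 (8.33% against 5.38%). Of the 48 members, 24 (50%) held any of the 4, against 21.1% of all genes with a window. Those genes were not limited to genes expressed in liver and not matched to the members in base composition. A match of letters is a description and not a binding site. Each window below is written 5′ to 3′ on the strand of the gene, with matches in capitals, so a match on the opposite strand appears as its reverse complement. Sdhd (chr9:50603800-50604099, minus strand) is a membrane anchor of complex II with matches to NRF1, ETS and estrogen-related receptor letters. Cox6a1 (chr5:115348909-115349208, minus strand) is a complex IV subunit with the NRF1 consensus at more than 1 place. Sdhb (chr4:140961021-140961320, plus strand) had the lowest ratio between the sections among subunits with at least 500 UMIs. Cox7a1 (chr7:30183921-30184220, plus strand) is a complex IV isoform of heart and skeletal muscle with no match.
Sdhd: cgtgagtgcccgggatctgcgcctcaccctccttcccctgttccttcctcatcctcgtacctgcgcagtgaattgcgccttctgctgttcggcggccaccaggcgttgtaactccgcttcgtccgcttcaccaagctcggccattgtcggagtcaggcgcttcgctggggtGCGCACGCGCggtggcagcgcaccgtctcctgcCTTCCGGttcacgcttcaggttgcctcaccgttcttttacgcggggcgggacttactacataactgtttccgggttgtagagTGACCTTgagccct
Cox6a1: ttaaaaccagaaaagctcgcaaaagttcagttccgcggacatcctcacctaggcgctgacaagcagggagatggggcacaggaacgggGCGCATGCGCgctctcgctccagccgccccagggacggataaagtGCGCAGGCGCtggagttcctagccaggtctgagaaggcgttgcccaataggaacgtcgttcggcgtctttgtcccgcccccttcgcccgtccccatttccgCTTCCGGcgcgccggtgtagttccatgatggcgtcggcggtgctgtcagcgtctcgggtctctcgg
Sdhb: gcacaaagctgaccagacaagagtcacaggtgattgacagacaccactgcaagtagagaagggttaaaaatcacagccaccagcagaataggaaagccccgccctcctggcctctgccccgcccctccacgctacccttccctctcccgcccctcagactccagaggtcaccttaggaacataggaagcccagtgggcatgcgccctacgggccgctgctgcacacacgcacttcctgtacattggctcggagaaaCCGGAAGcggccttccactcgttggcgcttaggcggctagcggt
Cox7a1: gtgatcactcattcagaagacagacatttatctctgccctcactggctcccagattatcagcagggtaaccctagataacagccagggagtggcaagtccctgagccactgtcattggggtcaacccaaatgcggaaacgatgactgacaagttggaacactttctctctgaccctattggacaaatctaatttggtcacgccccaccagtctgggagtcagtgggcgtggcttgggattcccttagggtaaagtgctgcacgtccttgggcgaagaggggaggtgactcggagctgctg

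After removal of spots with more than 50000 UMIs, 2309 of 2316 spots of the AEG-1-WT section (42246988 UMIs, median 16830 per spot) and 2163 of 2167 of the AEG-1-C75S section (41674347 UMIs, median 18808) were kept. Both tables carry 1887 of the same barcodes, which mark positions on the capture area and not cells. Levels are given in CPM, a gene's share of the UMIs of the same spots on a common scale. The sections differed in markers of other cells. Connective tissue markers stood at log2 -0.97 (0 of 5 genes higher in AEG-1-C75S), vessel wall markers at -1.77 (0 of 3), red blood cell markers at -0.59 (0 of 2) and bile duct markers at -0.45 (0 of 4), while Kupffer cell markers stood at 0.42 (5 of 5 higher) and stellate cell markers at 0.35 (4 of 4). The summed markers of both hepatocyte zones stood at log2 -0.10, with 1 of 5 periportal and 0 of 3 pericentral genes higher. Cyp2f2, the periportal gene of the axis used here, went up from 54965 to 65565 UMIs while Gls2 went from 17021 to 10629. Their part in the results below was not tested, except where a value without the spots richest in such markers is given. In AEG-1-C75S those spots were also of lower depth, with a median of 11505.5 UMIs against 19243 in the other spots. Leaving them out may therefore not remove the same tissue from both sections. In RNA summed over spots, fewer cells of a type and less RNA per cell cannot be told apart.

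The respiratory chain was held at nearly the same level in both sections. All members together had 417286 UMIs (9877 CPM, 0.988% of all UMIs) in AEG-1-WT against 400903 UMIs (9620 CPM, 0.962%) in AEG-1-C75S, a log2 ratio of -0.04 (-0.04 to -0.03). The direction of this small difference depended on the scaling, since it was 0.0097 after centring on the median gene and 0.018 with TMM factors. Without the tenth of spots richest in connective tissue, vessel wall and bile duct markers it was -0.04, as with all spots.

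Of 51 members with at least 500 UMIs over both sections, 0 were higher and 0 were lower in AEG-1-C75S by 1.2-fold, where 7.18% of the 8729 genes with that many UMIs were higher and 14% lower. With at least 2000 UMIs, the counts were 0 of 46 members in either direction, against 7.02% higher and 12.6% lower. The median member stood at log2 -0.02 and the median gene at -0.05. The members ran from -0.21 to 0.26, while the 5th to 95th percentile of all genes ran from -0.43 to 0.32. Intervals above 0 were found for 10 members (19.6%, all genes 19.3%) and below 0 for 19 (37.3%, all genes 33.6%), shares close to those of all genes. Of the other 10 members, 2 had 0 UMIs and 8 had between 13 and 431 over both sections. They include the supernumerary complex I subunits Ndufb2 (148 and 139 UMIs), Ndufb3 (148 and 185) and Ndufb4 (230 and 201).

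**Figure D1:**
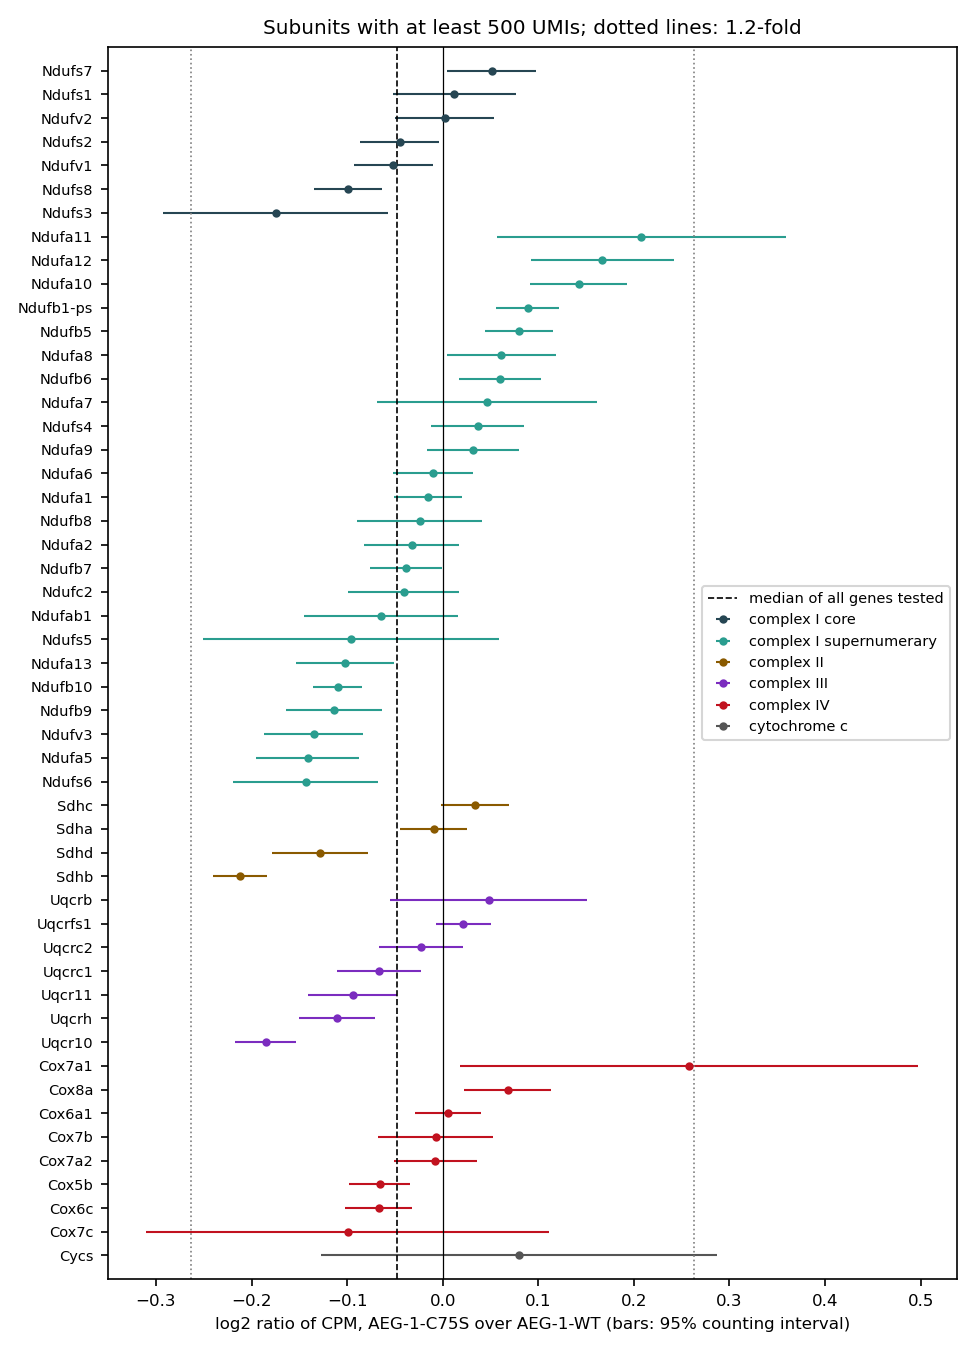
The log2 ratio of CPM in AEG-1-C75S over AEG-1-WT is plotted for the 51 subunits with at least 500 UMIs, grouped by complex, with 95% counting intervals as bars. Every point lies between the dotted lines at 1.2-fold, and the dashed line marks the median of all genes tested, -0.05.

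The plot of ratios by subunit shows points of each complex on both sides of 0. By complex, the summed level was 1208 CPM in AEG-1-WT against 1176 CPM in AEG-1-C75S for the complex I core, which carries the flavin and iron-sulfur centres (log2 -0.04), and 4066 against 4028 CPM for the supernumerary subunits (log2 -0.01). It was 1549 against 1525 CPM for complex IV (log2 -0.02). These differences turned positive after centring on the median gene (0.0092, 0.034 and 0.025). Complex II stood at 1303 and 1222 CPM (log2 -0.09, -0.11 to -0.08) and complex III at 1742 and 1659 CPM (log2 -0.07, -0.09 to -0.06), and their ratios were below 0 under every scaling tried. Cycs, the mobile electron carrier cytochrome c, had 377 and 393 UMIs (8.92 and 9.43 CPM, log2 0.08, -0.13 to 0.29), which does not separate the sections.

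Within complex II the subunits differed. Sdhb, the iron-sulfur subunit, had 22382 UMIs (529.8 CPM) in AEG-1-WT against 19062 UMIs (457.4 CPM) in AEG-1-C75S, a log2 ratio of -0.21 (-0.24 to -0.18). This was the lowest ratio of a tested member, and it ranged from -0.22 to -0.16 over the alternatives. Sdhd had 160.9 and 147.1 CPM (log2 -0.13, -0.18 to -0.08). Sdha, the catalytic flavoprotein, had 308.7 and 306.7 CPM (log2 -0.01, -0.04 to 0.03), and Sdhc, the other membrane anchor, had 303.5 and 310.7 CPM (log2 0.03). The lower sum of complex II therefore came from Sdhb and Sdhd.

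The next lowest ratios were those of Uqcr10, a small subunit of complex III (402.4 and 353.9 CPM, log2 -0.19, -0.22 to -0.15), and of Ndufs3, a complex I core subunit (30.04 and 26.61 CPM, log2 -0.17, -0.29 to -0.06). Ndufs6 (log2 -0.14) and Ndufa5 (log2 -0.14), both supernumerary subunits of complex I, followed. The highest ratios were those of Cox7a1 (268 and 316 UMIs, log2 0.26, 0.02 to 0.50) and of the supernumerary subunits Ndufa11 (15.98 and 18.45 CPM, log2 0.21, 0.06 to 0.36), Ndufa12 (65.57 and 73.62 CPM, log2 0.17), Ndufa10 (143.2 and 158.0 CPM, log2 0.14) and Ndufb1-ps (338.4 and 359.9 CPM, log2 0.09). After thinning to 5000 UMIs per spot the Cox7a1 ratio was 1.02, from 1 random draw with fewer UMIs and without an interval. The main ratios all lie inside the range of the middle 90% of genes. Subunits of 1 complex thus lay on both sides of 0, with no complex displaced as a whole by more than the log2 -0.09 of complex II.

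The spots of each section were ranked by (Cyp2f2+1)/(Cyp2e1+1), UMIs of a periportal over those of a pericentral hepatocyte gene, and cut by rank into 5 bins, bin 1 being the most periportal. The summed level of all members was slightly higher at the periportal end in both sections. It was 10111, 9971, 9793, 9799 and 9722 CPM from bin 1 to bin 5 in AEG-1-WT, against 9933, 9698, 9545, 9434 and 9495 CPM in AEG-1-C75S. The log2 ratio of bin 1 over bin 5 was 0.06 (0.04 to 0.07) in AEG-1-WT against 0.07 (0.05 to 0.08) in AEG-1-C75S. The median gene was not at 0 on this axis but at -0.14 in AEG-1-WT against -0.12 in AEG-1-C75S, and relative to it the summed level stood at 0.20 and 0.18.

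Along the axis, bile duct markers went from 243 to 28.2 CPM in AEG-1-WT against 140 to 33.6 CPM in AEG-1-C75S, and the median UMIs per spot differed little between the end bins (for AEG-1-WT 15861 and 16078, for AEG-1-C75S 17810 and 18164). Without the tenth of spots richest in connective tissue, vessel wall and bile duct markers the log2 ratios of the summed level were 0.06 and 0.07.

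**Figure D2:**
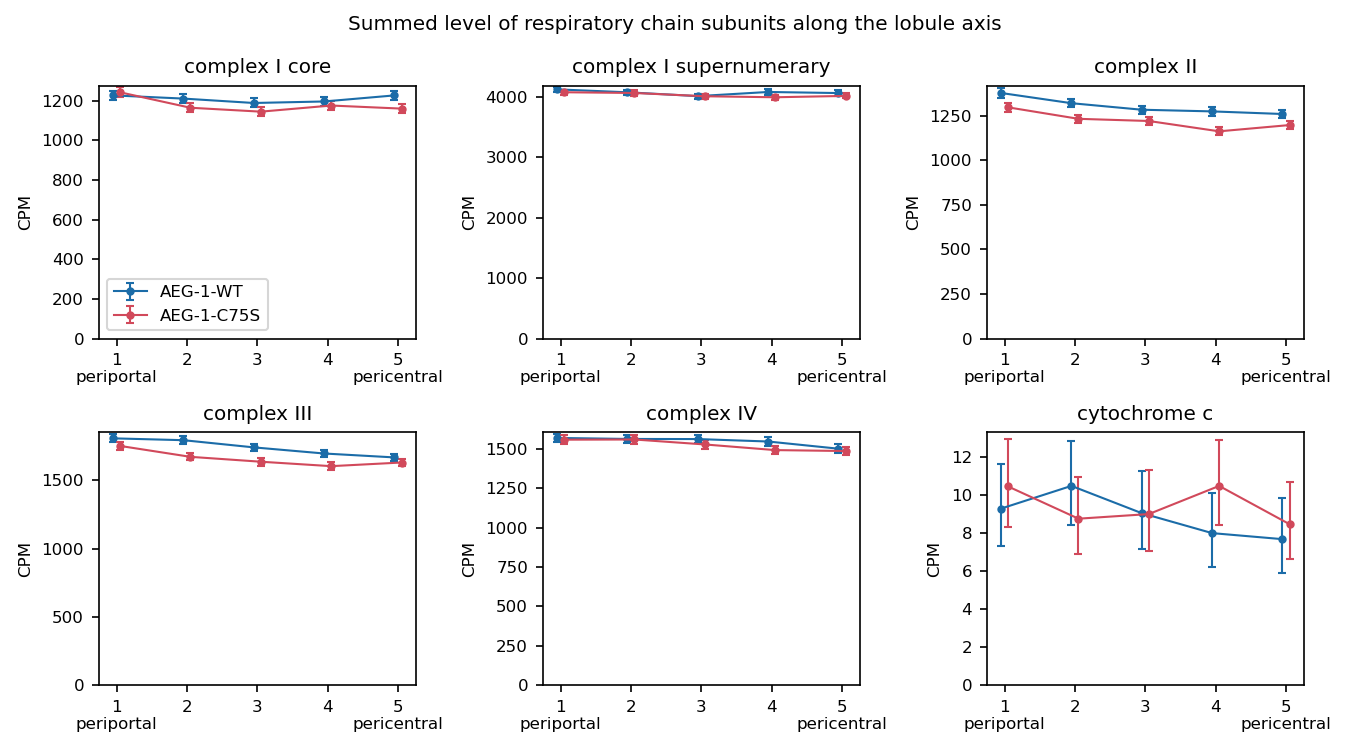
Summed CPM of each group of subunits is plotted over the 5 bins of spots from periportal to pericentral in both sections, with exact Poisson 95% intervals as bars and axes that start at 0. Complexes II and III are higher in bin 1 than in bin 5 of both sections, with 1378 and 1260 CPM for complex II in AEG-1-WT, while the supernumerary subunits of complex I differ by log2 0.02.

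The complexes were not equal in this. Complex II (log2 0.13, 0.09 to 0.17 in AEG-1-WT against 0.11, 0.08 to 0.15 in AEG-1-C75S) and complex III (0.12, 0.08 to 0.15 and 0.10, 0.07 to 0.14) had the higher periportal excess in both sections. Complex IV was at 0.06 and 0.07. The supernumerary subunits of complex I were at 0.02 in both sections. The complex I core was at 0.00 (-0.04 to 0.04) in AEG-1-WT against 0.10 (0.06 to 0.14) in AEG-1-C75S, intervals that do not overlap. Whether that difference belongs to the genotype cannot be told apart from a difference between these sections. Cycs was at 0.27 and 0.30 with intervals that hold 0 (-0.23 to 0.79 and -0.17 to 0.78).

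Of 44 members with at least 500 UMIs in the end bins of each section, 0 were higher periportally and 0 higher pericentrally by 1.2-fold in both sections. Among the 3547 genes that met the same minimum, 3.98% were higher periportally and 16.7% pericentrally. Relative to the median gene the scaling changed this split to 7.47% and 8.4%, and 5 members then passed periportally (Ndufa1, Ndufa13, Sdhb, Uqcr10 and Uqcrh). The log2 ratio was above 0 in both sections for 27 members and below 0 in both for 7, while 16.3% of all genes were above 0 in both. By section, 30 of the 44 members were above 0 in AEG-1-WT (all genes 22.4%) and 34 in AEG-1-C75S (all genes 25.7%). Above the median gene in both sections were 41 of the 44 members (93.2%), against 37.8% of all genes. Of the 7 members with enough UMIs over both sections but too few at the ends, Ndufs3 (log2 -0.12 and -0.01), Ndufa11 (-0.13 and 0.22), Ndufa7 (-0.44 and -0.18), Ndufs5 (-0.41 and 0.06) and Cox7c (0.81 and 0.23) had ratios with wide intervals. The others, Cycs and Cox7a1, are described apart.

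Counting intervals lay above 0 in both sections for 8 members (18.2%, all genes 7.53%) and below 0 in both for 2 (4.55%, all genes 31%). Since most members are well counted, the same was read over genes with at least 2000 UMIs in the end bins, where the shares were 8 of 35 members (22.9%) against 17.3% of genes periportally, and 2 of 35 (5.71%) against 48.8% pericentrally. The pericentral share was the one farther from that of all genes. At this minimum too, 0 of 35 members passed 1.2-fold in both sections, against 7.75% of genes periportally and 23.4% pericentrally.

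**Figure D3:**
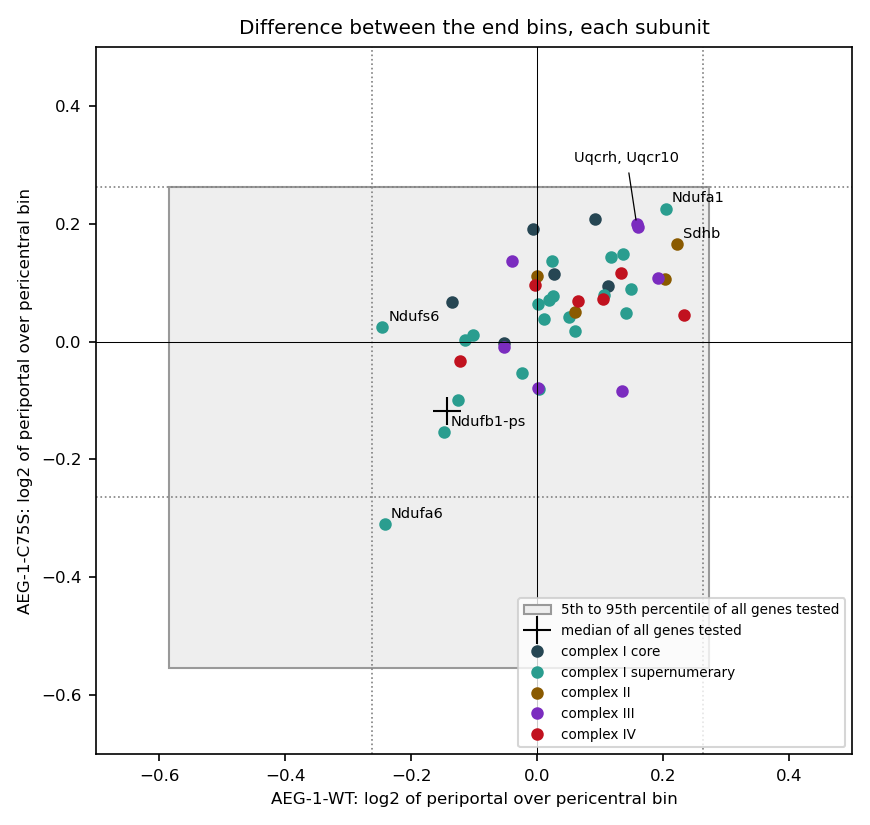
Each point is 1 of 44 subunits, placed by its log2 ratio of the periportal over the pericentral bin in the AEG-1-WT section (horizontal) and that in the other section (vertical), with 1.2-fold as dotted lines. The grey box spans the 5th to 95th percentile of all genes tested and the cross its median (-0.14 and -0.12), and 41 of the points lie above and to the right of the cross.

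The 5 members with the highest mean periportal ratio over the sections were Ndufa1, Sdhb, Uqcrh, Uqcr10 and Sdhd. Ndufa1, a membrane-arm subunit of complex I, stood at 332.7, 317.6, 292.6, 294.4 and 288.8 CPM over the bins of AEG-1-WT against 326.3, 327.1, 291.0, 284.1 and 279.1 CPM in AEG-1-C75S. Its log2 ratio of the end bins was 0.20 (0.12 to 0.29) and 0.23 (0.14 to 0.31). Ndufa1 was thus lower over the last 3 bins than over the first 2 in both sections. After thinning to 5000 UMIs per spot, its ratio in AEG-1-C75S was 0.07.

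Sdhb stood at 569.8, 548.9, 521.7, 520.1 and 488.6 CPM in AEG-1-WT against 488.6, 468.8, 453.7, 440.5 and 435.8 CPM in AEG-1-C75S (log2 0.22, 0.16 to 0.28, and 0.16, 0.10 to 0.23). Sdhb was the 1 member (2.27%) that changed in the same direction at every step in both sections, where 11.2% of genes did so. Its level was lower in AEG-1-C75S in each of the bins, so that bin 1 of AEG-1-C75S had the level of bin 5 of AEG-1-WT. Sdhd followed at 0.20 (0.09 to 0.32) and 0.11 (-0.01 to 0.22), while Sdha (0.06 and 0.05) and Sdhc (0.00 and 0.11) were flatter. After thinning, the ratio of Sdhd in AEG-1-WT was 0.07.

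Uqcrh, the hinge protein that joins cytochrome c1 and cytochrome c, had a log2 ratio of 0.16 (0.07 to 0.25) and 0.20 (0.11 to 0.29), and Uqcr10 of 0.16 (0.09 to 0.23) and 0.19 (0.12 to 0.27). Cyc1, the cytochrome c1 subunit of complex III that the rule does not take in, was at 0.12 and 0.17. Of the 7 complex III members, 3 were above 0 in both sections, where 16.3% of all genes were: Uqcrh, Uqcr10 and Uqcrfs1 (0.19 and 0.11). Uqcr11 (-0.05 and -0.01), Uqcrb (0.00 and -0.08) and Uqcrc1 (-0.04 and 0.14) were not, so an excess above 0 in both sections was not shared by most members. Relative to the median gene (-0.14 and -0.12), all 7 members were higher periportally in both sections, where 37.8% of all genes were. This count differs from the count above 0 only in its reference, and 7 genes are too few to read a share. Uqcrc2, a core protein picked here after its values were seen, was at 0.13 (0.04 to 0.23) in AEG-1-WT against -0.08 (-0.18 to 0.02) in AEG-1-C75S.

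Only Ndufa6 and Ndufb1-ps, both supernumerary subunits of complex I, had intervals below 0 in both sections among the 44. Ndufa6 stood at 208.1, 206.7, 208.4, 230.3 and 246.2 CPM over the bins of AEG-1-WT against 206.9, 198.9, 213.8, 214.9 and 256.5 CPM in AEG-1-C75S, highest in bin 5 of both. Its log2 ratio was -0.24 (-0.34 to -0.15) and -0.31 (-0.40 to -0.22), below the median gene, and after thinning it was -0.14 in AEG-1-WT. Ndufb1-ps, the mouse gene of the Ndufb1 subunit, was at -0.15 in both sections, close to the median gene. Ndufv3 (-0.13 and -0.10) and Cox6a1 (-0.12 and -0.03) were also low, and Ndufs6 was at -0.25 (-0.42 to -0.07) in AEG-1-WT against 0.02 (-0.15 to 0.20) in AEG-1-C75S.

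Other lists of the mitochondrion were read beside the members. The ATP synthase (13 genes), which uses the proton gradient, stood at log2 -0.02 between the sections and at 0.07 and 0.10 on the axis. Of its genes, 0 of 13 passed 1.2-fold between the sections, where 7.18% of all genes were higher and 14% lower. On the axis 0 of 11 did so, where 3.98% of all genes were higher periportally and 16.7% pericentrally. With so few genes, 0 calls say little about the list. The TCA cycle (13 genes), which feeds NADH and succinate to the chain, was at -0.06 between the sections and at 0.04 and 0.03 on the axis. Of these, Idh3a, a subunit of isocitrate dehydrogenase, was lower in AEG-1-C75S (48.1 and 38.9 CPM, log2 -0.31). Idh3a and Cs, citrate synthase (133 and 142 CPM), were higher pericentrally in both sections (log2 -0.46 and -0.32 for Idh3a, -0.68 and -0.59 for Cs). These are 1 of 13 genes lower (7.69%, all genes 14%) and 2 of 13 higher pericentrally (15.4%, all genes 16.7%), no more than among all genes.

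Assembly factors of the complexes (37 genes in the tables, 36 with enough UMIs) were lower periportally, unlike the subunits they help to build, with axis ratios of -0.15 and -0.12, near the median gene. Between the sections 1 was higher, Sco2, a copper chaperone of complex IV (log2 0.48), and 5 were lower, Bcs1l, Coa4, Coa6, Ndufaf6 and Sdhaf1 (log2 -0.30 to -0.37). These are 2.78% and 13.9% of the list, no more than the 7.18% and 14% of all genes. The summed level of the assembly factors stood at log2 -0.08 (-0.10 to -0.07) between the sections. Their median was -0.16, against -0.05 for the median gene, and 4 of 36 were above 0, against 39.9% of all genes. Of 14 regulators of mitochondrial biogenesis, Pprc1 was higher (log2 0.52) and Esrra, Ppargc1a, Ppargc1b and Tfb1m were lower (log2 -0.67, -0.29, -0.34 and -0.41), which is 7.14% and 28.6% of the list against 7.18% and 14% of all genes. Esrra, the estrogen-related receptor alpha, fell from 26.2 to 16.5 CPM. Ppargc1b, a coactivator of these receptors, was higher periportally by 1.2-fold in both sections (log2 0.41 and 0.72). It was the 1 called among the 5 regulators with enough UMIs at the ends (20%, against 3.98% of all genes), too few genes to read a share. Ppargc1a, its paralog, was at 0.69 (0.27 to 1.11) and 0.49 (0.05 to 0.93) on fewer UMIs. The summed level of the 14 regulators was nearly flat on the axis, at -0.01 and 0.01, where the median gene was at -0.14 and -0.12. Between the sections their sum stood at log2 -0.06, with 6 of 14 above 0, against 39.9% of all genes.

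The proteasome core (18 genes whose symbols start with Psma or Psmb, 16 with enough UMIs), a list outside the mitochondrion, was higher pericentrally. Its axis ratios were -0.33 and -0.29, and 8 of its 16 genes (50%) were past 1.2-fold in both sections, against 16.7% of all genes. Between the sections 0 of 16 were higher by 1.2-fold (all genes 7.18%) and 3 of 16 were lower (18.8%, against 14% of all genes). The summed level nevertheless stood at log2 0.03 (0.01 to 0.04), and 11 of 16 genes were above 0, against 39.9% of all genes.

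**Figure D4:**
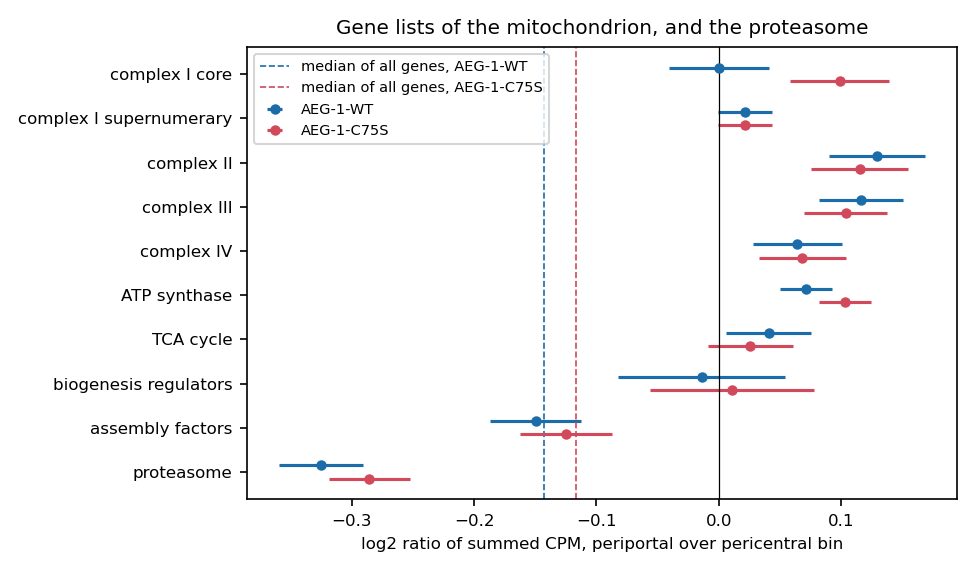
The log2 ratio of summed CPM in the periportal over the pericentral bin is plotted for the respiratory complexes and other gene lists in both sections, with 95% counting intervals as bars and the median of all genes as dashed lines. The 5 respiratory groups and the ATP synthase lie at or above 0, the assembly factors near the median gene (-0.15 and -0.12), and the proteasome at -0.33 and -0.29.

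The share of a spot's UMIs that fell on the members was narrow. Its median was 0.988% in AEG-1-WT, with a 5th to 95th percentile of 0.854% to 1.13%, and 0.956% in AEG-1-C75S, with 0.816% to 1.10%. The variance between spots was 1.15 times that of counting alone in AEG-1-WT against 1.25 times in AEG-1-C75S, which leaves a coefficient of variation between spots of 2.85% and 3.53%. By complex it was 2.52% and 2.77% for complex I, 6.01% and 5.28% for complex II, 4.61% and 5.68% for complex III and 2.76% and 4.97% for complex IV. The same measure was 5.25% and 7.06% for the ATP synthase, 10.8% and 7.92% for the proteasome core and 3.06% and 3.23% for the assembly factors. These lists differ in their number of genes, so the narrow spread of the sum is not read as a trait of the members. In the tenth of spots richest in connective tissue, vessel wall and bile duct markers (231 and 216 spots), the members differed from the other spots by log2 -0.02 and -0.01. There, 0 of 48 members with at least 500 UMIs in each section passed 1.2-fold in either direction in both sections. Of genes with that many UMIs, 5.85% were higher and 1.35% lower in both. The marker-rich spots had a median of 17983 UMIs against 16700.5 in the other spots of AEG-1-WT, but 11505.5 against 19243 in AEG-1-C75S. They made up 21.6% of bin 1 and 2.82% of bin 5 in AEG-1-WT, against 17.6% and 5.09% in AEG-1-C75S. Whether they are the same tissue in both sections was not tested.

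A set of 8 isoforms known from other tissues was counted at a low level. Cox7b2 and Cox8c, known from testis, had 0 UMIs in both sections, which allows up to 0.0710 CPM in AEG-1-WT against 0.0720 CPM in AEG-1-C75S. Cox4i2, the lung isoform of subunit 4, had 34 and 15 UMIs, Cox6a2, the heart and muscle isoform of subunit 6a, had 30 and 20, Cox6b2, the testis isoform of subunit 6b, had 29 and 12, and Cox8b, the heart and muscle isoform of subunit 8, had 8 and 5. These counts are too low for a profile along the axis. The isoforms used in liver, Cox6a1 (13773 and 13639 UMIs), Cox7a2 (8510 and 8350), Cox7b (4493 and 4409) and Cox8a (7754 and 8017), had log2 ratios between the sections of 0.01, -0.01, -0.01 and 0.07.

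Cox7a1 and Ndufa4l2 were the most counted of the 8. Cox7a1 stood at 8.80, 6.11, 6.60, 6.29 and 3.91 CPM from bin 1 to bin 5 in AEG-1-WT against 11.5, 8.43, 7.63, 5.13 and 5.37 CPM in AEG-1-C75S. The end bins differed by log2 1.17 (0.54 to 1.83) and 1.09 (0.56 to 1.64), where Cox7a2 was at 0.10 and 0.07. The Cox7a1 ratio was 0.73 or higher under every alternative, and without the tenth of spots richest in connective tissue, vessel wall and bile duct markers it was 1.19 and 1.09. Those spots held 13.8% and 9.81% of its UMIs, against 11.0% and 8.08% of all UMIs. Muscle markers (4 of 5 genes in the tables) summed to 0.0710 and 0.0240 CPM, which is 3 UMIs and 1.

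Ndufa4l2, a paralog of Ndufa4 that is known to rise in hypoxia, had 159 and 156 UMIs. It stood at 5.40, 4.84, 3.69, 2.97 and 1.89 CPM from bin 1 to bin 5 in AEG-1-WT against 4.61, 5.96, 3.13, 2.27 and 2.63 CPM in AEG-1-C75S. The end bins differed by log2 1.52 (0.64 to 2.47) and 0.81 (0.01 to 1.64), but after each spot was thinned to 5000 UMIs the ratio was -0.23 and -0.42, on fewer UMIs. Of its UMIs, 27.0% and 19.2% lay in the spots richest in connective tissue, vessel wall and bile duct markers, more than the share of all UMIs there. Without those spots the ratio was 1.98 and 0.57.

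**Figure D5:**
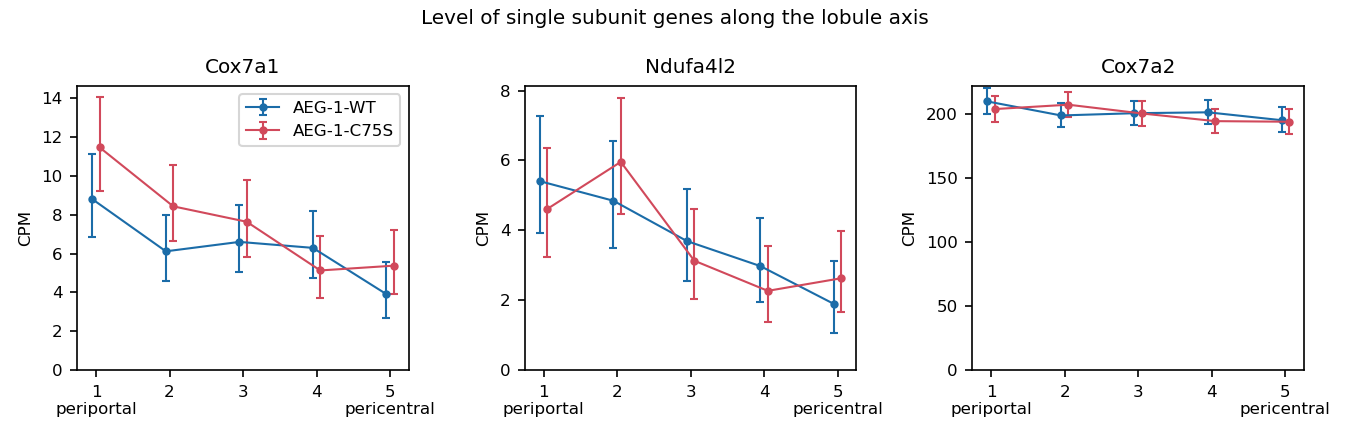
CPM of Cox7a1, Ndufa4l2 and Cox7a2 is plotted over the 5 bins of spots in both sections, with exact Poisson 95% intervals as bars, axes from 0 and a separate scale for each gene. Cox7a1 has 8.80 CPM in bin 1 and 3.91 in bin 5 of AEG-1-WT, and 11.5 and 5.37 CPM in AEG-1-C75S, while Cox7a2 differs by log2 0.10 and 0.07.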

How the data were processed

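UMI counts per gene and spot of 1 AEG-1-WT and 1 AEG-1-C75S liver section were used as deposited by the authors, who made them with Space Ranger 2.0.1 on the mm10 reference and did not normalize them. They held 0 columns of other samples. For 11 repeated symbols, only the entry listed first was read. Spots with more than 50000 UMIs were left out, and counts were summed over spots, scaled to the total of the same spots and compared as log2 ratios, with Clopper-Pearson intervals that cover counting error only. Calls needed 500 UMIs and a ratio of 1.2-fold. Named genes were complex II, Cycs, the 5 highest and 5 lowest members by genotype and on the axis, and isoforms with a tissue-restricted paralog. Named genes of the other lists were those past 1.2-fold, except in the proteasome core, where only counts are given. The alternatives were no spot filter, totals without the 20 most abundant genes, centring on the median gene, TMM factors, equal weight per spot, thinning to 5000 UMIs, leaving out the tenth of spots richest in connective tissue, vessel wall and bile duct markers, another axis of 4 periportal and 2 pericentral genes, bins within 10 classes of depth, minimums of 200 and 2000 UMIs and a call at 1.5-fold. Scripts ran on python 3.11.15 (pandas 2.3.3, scipy 1.17.1, numpy 2.4.6), and edgeR 4.0.16 gave the TMM factors. The interval method was run only on simulated Poisson counts. These hold no variation beyond counting, which is what the method assumes, so the run says nothing about variation between spots or animals. The members and lists were chosen with earlier results of these data known.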

Additional observations from a re-analysis of the deposited data

How the results depend on the processing

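No paired analysis was possible because each genotype has 1 section. The summed log2 ratio between genotypes, -0.04, was 0.0062 without the 20 most abundant genes in the totals, 0.0097 after centring on the median gene, 0.018 with TMM factors and -0.045 with equal weight per spot. Under the first 3 of these scalings in that order, it turned to 0.0056, 0.0092 and 0.018 for the complex I core, 0.031, 0.034 and 0.043 for its supernumerary subunits, 0.025, 0.029 and 0.037 for complex I and 0.022, 0.025 and 0.034 for complex IV. The cause was not tested beyond the shift of the median gene (-0.05).

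The axis ratio of all members (0.06 and 0.07) became 0.18 (AEG-1-WT) and 0.17 (AEG-1-C75S) without the 20 most abundant genes, 0.20 and 0.18 after centring, 0.16 and 0.16 with TMM factors, and 0.041 in AEG-1-WT after thinning. With these scalings 4, 5 and 3 members passed 1.2-fold periportally, where 6.94%, 7.47% and 6.4% of genes did. Ndufa1, Uqcr10 and Uqcrh passed under each. With axis bins made within 10 classes of depth 2 members passed pericentrally (Ndufa6 and Ndufa7). With the main settings Ndufa7 had too few UMIs in the end bins to be tested. The share of 16.7% of all genes belongs to the main settings, so these calls are not read against it. Between the sections, 1 member passed higher without the 20 most abundant genes, after centring, with equal weight and without the marker-rich spots (Cox7a1 each time), 2 with TMM factors (Cox7a1 and Ndufa11) and 1 at a minimum of 200 UMIs (Ndufb3). No alternative gave a member past 1.2-fold lower (0 in all). The shares of all genes, 7.18% higher and 14% lower, are those of the main settings. Centring and TMM factors moved the median gene from -0.05 to 0 and 0.008, so the calls under the alternatives are not read against these shares.

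Centring adds the same value to every axis ratio of a section and turned the sign of 11 of 44 members in AEG-1-WT and 8 of 44 in the other section. Among the named subunits whose interval excluded 0, it turned Cox6a1 (0.020) and Ndufv3 (0.016) in AEG-1-WT, and thinning turned Cox7a2 in AEG-1-WT (-0.028), Ndufa5 in AEG-1-C75S (-0.058) and Ndufa4l2 (-0.23 and -0.42). Thinning was 1 random draw that left out 6 and 17 spots and most of the UMIs. The axis bins were ranked again on the thinned counts. Axis ratios after thinning therefore mix sampling error with spots that changed bin. The main limit is the design, since 1 section per genotype leaves the spread between animals unmeasured, and probe counts of different genes are not comparable as levels.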
